A study of Chlamydomonas reinhardtii with 25 samples.

Results

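The transcript response of the unicellular green alga Chlamydomonas reinhardtii to thulium is set here against its response to yttrium. The comparison takes all 5 RNA-sequencing libraries of cells exposed to thulium (Tm) and all 5 of cells exposed to yttrium (Y), 10 of the 25 libraries in the series, by their titles. The groups are the Tm cells, the Y cells, cells given an equimolar mixture of cerium, thulium and yttrium (Mix), cells given cerium alone (Ce), and controls, with 5 libraries in each. Every group was the wild-type strain CC-125, grown to mid-exponential phase at 20 °C with 12 h of light per day, washed, and held for 2 h in a HEPES buffer at pH 7.0 with 10.0 µM calcium nitrate. The metal groups received 0.5 µM, and the labels do not say whether this is the total or the amount of each metal in Mix. Nor do the labels say whether the 5 samples of a group came from separate cultures, so p-values measure only the spread between these samples, which may be technical. Polyadenylated RNA was sequenced, and the deposited table gives read counts for 19526 transcripts, called genes below.

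Thulium is a lanthanide and one of the heavy rare earth elements. Yttrium is not a lanthanide, but its trivalent ion is close in size to those of the heavy lanthanides, and it is usually grouped with them. Cerium is a light rare earth element with a larger trivalent ion. Trivalent rare earth ions can take the place of calcium at binding sites and can block calcium channels. Genes carry the IDs that the count table gives them. Neither that table nor the reference annotation pairs these IDs with a name or product, so no function can be stated, and the lists of photosynthesis, metal transport, stress and other genes drawn up for this organism matched 0 members.

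The Tm libraries held 12920957 to 21888183 counts and the Y libraries 16183384 to 20913599. Of the 19526 genes, 12796 (65.5%) had enough counts to be tested. Differences were tested with edgeR's quasi-likelihood test on all 25 libraries, and a gene is called where its p-value, adjusted by the Benjamini-Hochberg method over all tested genes, is under 0.05. Levels are given in CPM, counts scaled to a common library size, and differences as log2 of Tm over Y, so that a positive value means higher in Tm. Within a group the median gene had an SD of log2 CPM of 0.25 in Tm, 0.21 in Y and 0.43 in the controls. No technical batch could be entered, since the labels do not tie a library to a sequencing lane or an exposure day.

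Tm and Y libraries differed in many genes and by small amounts. The test called 2659 of the 12796 genes (20.8%), of which 1247 were higher in Tm (9.75% of those tested) and 1412 were lower in Tm (11.0%). Of the 2659 called genes, 2160 (81.2%) differed by less than 2-fold, and 1034 by less than 1.5-fold. Those that differed by at least 2-fold numbered 499 (3.90% of those tested), 202 of them higher and 297 lower in Tm, and 23 differed by at least 4-fold. The median absolute log2 difference was 0.30 over all tested genes and 0.67 over the called ones.

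**Figure D1:**
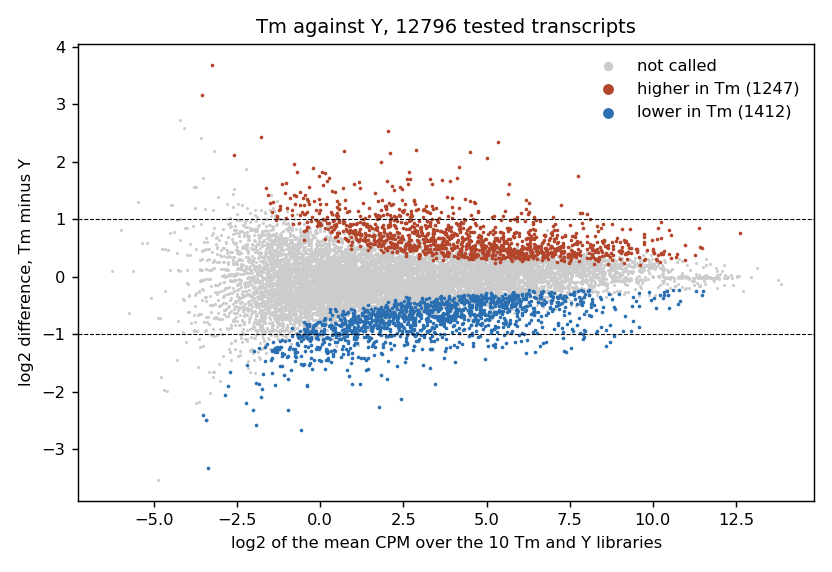
Log2 difference of Tm over Y (vertical axis) against the log2 of the mean CPM over the Tm and Y libraries (horizontal axis) for the 12796 tested genes, with the 1247 genes higher and the 1412 genes lower in Tm marked. Most called genes lie within a 2-fold difference in either direction.

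The separation was visible in single libraries. All 5 Tm libraries lay above all 5 Y libraries in 1556 genes (12.2% of those tested) and below them in 1605 (12.5%). Among called genes this held for 1008 of the 1247 that were higher in Tm (80.8%) and for 1113 of the 1412 that were lower (78.8%). The calls were made on these same libraries, which favours such shares. In a principal component analysis of the 10 libraries, the first component held 38.6% of the variance, with the Tm libraries between 14.8 and 37.7 and the Y libraries between -27.7 and -25.0. The second component held 11.6% and set library 5 of both groups apart, at -32.9 in Tm and -22.7 in Y.

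The number of calls moved with the libraries in the fit, and the split by direction with the scaling. Fitted on the 10 Tm and Y libraries alone, which also changes the genes tested and the scaling, edgeR called 4536 of 10950 genes (41.4%), 2141 higher and 2395 lower in Tm. Of the 2659 genes called with all libraries, 2574 (96.8%) were called there too, all 2574 in the same direction. Genes higher in Tm made up 46.9% of the calls with TMM scaling (trimmed mean of M-values), 59.9% with upper-quartile factors and 70.4% with TMM scaling that took control library 1 in place of Tm library 2 as its reference library. More genes were lower than higher in Tm with the TMM scaling used, and more were higher than lower under both of these others. The same held with library totals alone (1380 higher, 1241 lower) and with DESeq2 size factors (1511 and 1149). Without Tm library 2 and with Tm library 3 as TMM reference, 1052 were higher and 1249 lower.

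The genes that separate the metals were set against the response that the metals share. For this each gene was classed by the mean of Tm and Y against the control, a contrast that favours neither metal. By edgeR 4554 genes (35.6%) were higher in the metals than in the control, and 5037 (39.4%) were lower. Among the genes above control, Tm was below Y in 1000 (22.0%) and above Y in 192 (4.22%). Among the genes below control the order was the opposite, with Tm above Y in 920 (18.3%) and below Y in 168 (3.34%). Where the metals differed, raised genes were thus mostly raised less in Tm than in Y, and lowered genes were mostly lowered less in Tm. In the 3205 genes not called against control, Tm was above Y in 135 and below Y in 244. The counts above control turned on the scaling: Tm was below Y in 684 and above Y in 590 with control library 1 as TMM reference, and below in 571 and above in 569 without Tm library 2, where edgeR took that same control as reference. Without Tm library 2 but with Tm library 3 as reference, these counts were 904 and 154.

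The difference between Tm and Y was larger in genes with a larger shared response, except between the ranges of smallest response below control. For genes above control by less than 0.5 on the log2 scale, the median log2 difference of Tm over Y was -0.01, and it was -0.16, -0.25, -0.30 and -0.48 in the successive ranges of 0.5 to 1, 1 to 2, 2 to 3, and 3 or more. In the last range Tm was above Y in 8 of 181 genes and below Y in 78. For genes below control the medians were 0.08, 0.03, 0.12, 0.41 and 0.66 in the same ranges of size. The most strongly lowered genes had low levels, with a median of 1.32 CPM over Tm and Y. Of those 396 genes, lowered by 3 or more on the log2 scale, Tm was above Y in 156 and below Y in 1. The median over all tested genes was -0.04. Over whole classes the median was -0.18 above control and 0.15 below control, a gap of -0.33. A change of scaling moves both medians alike and enters the gap only through which genes are classed.

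**Figure D2:**
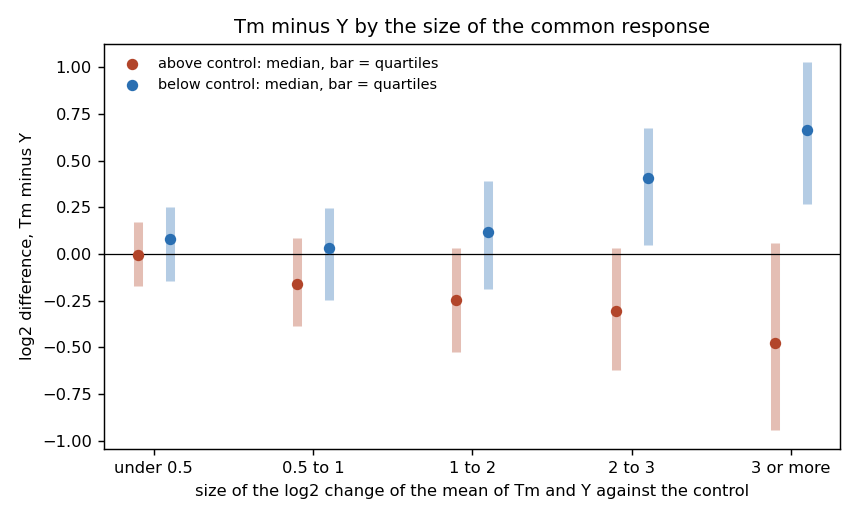
Median log2 difference of Tm over Y (vertical axis, bars are quartiles over genes) by the size of the mean response of Tm and Y to the control in log2 units (horizontal axis), for genes above and below control. The medians above control go down to -0.48 and those below control go up to 0.66 as the response grows.

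The same pattern was also put as a single number per library. This number draws on the same genes and libraries, so it is not independent of the class counts. Neither it nor the gap above was among the planned results. Each library's deviation from the control mean was regressed over genes on the line from the control mean (0) to the mean of Tm and Y (1), in log2 CPM with a prior count of 2. This response slope was 0.977, 0.937, 0.947, 0.921 and 0.849 in Tm libraries 1 to 5, and 1.09, 1.08, 1.08, 1.07 and 1.05 in Y libraries 1 to 5. Every Tm library lay below every Y library, and library 5 was the lowest in both groups. The means were 0.926 ± 0.048 in Tm and 1.07 ± 0.012 in Y (SD, n = 5 each), a difference of -0.147. With libraries taken as unpaired, an exact two-sided permutation test gave p = 0.00794, the smallest that 5 against 5 libraries can give. With same-numbered libraries taken as pairs, an exact two-sided sign-flip test gave p = 0.0625, the smallest that 5 pairs allow. The Mix slope averaged 0.862 ± 0.060 and the Ce slope 0.721 ± 0.027 on the same line, and the controls had an SD of 0.093 around 0 (n = 5 each). Since the line is drawn from Tm and Y, their slopes average 1. A lower slope in Mix or Ce thus does not by itself mean a weaker response.

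**Figure D3:**
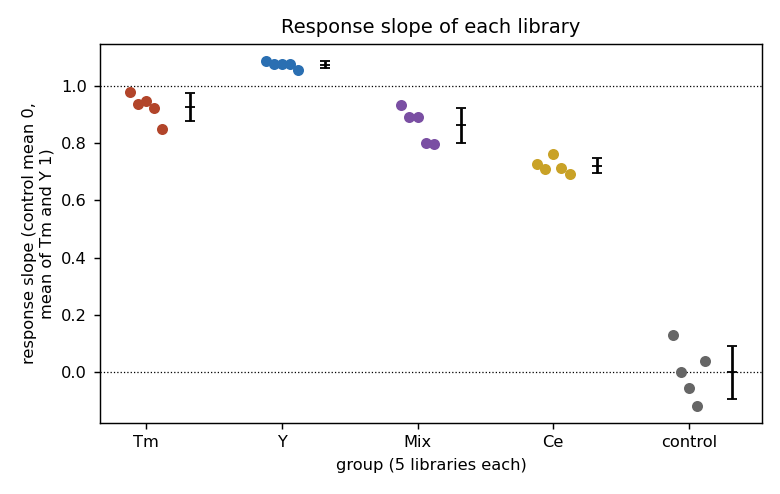
Response slope of each library (vertical axis, no unit: 0 is the control mean and 1 the mean of Tm and Y) by group (horizontal axis), with points for libraries and bars for the mean and SD of 5 libraries. The Tm libraries reach from 0.849 to 0.977 and lie below all Y libraries, which reach from 1.05 to 1.09.

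Whole classes were also read in single libraries. For the 4554 genes above control, the median log2 level relative to the control mean was between 0.91 and 1.05 in the Tm libraries and between 1.17 and 1.21 in the Y libraries, with no overlap. For the 5037 genes below control it was between -1.24 and -1.09 in the Tm libraries and between -1.26 and -1.20 in the Y libraries, and these overlap. These class medians move directly with the scaling, so they give no order between raised and lowered genes. With upper-quartile factors Tm was below Y in 815 and above in 340 raised genes, and above Y in 1204 and below in 143 lowered genes, so that the calls were then more uneven in the lowered ones.

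Over all called genes, taken by the mean CPM of each group, the control most often lay on the far side of Tm from Y. Of the 2659 called genes, the control level lay beyond that of Tm in 1943 (73.1%), between Tm and Y in 350 (13.2%) and beyond Y in 366 (13.8%). Among the 10137 genes not called, these shares were 53.8%, 8.14% and 38.0%. In most called genes Tm was thus intermediate between control and Y, and in 366 genes Y was the intermediate, with Tm further from the control.

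Genes that differed strongly between Tm and Y followed the same pattern. A group of 195 genes differed by at least 2-fold, reached a mean of at least 5 CPM in the higher group and had no overlap between the Tm and Y libraries. Of its 102 genes higher in Tm, the control level was above Tm in 94. Of its 93 genes lower in Tm, the control level was below Tm in 80. The genes named next are those with the largest differences and the highest mean levels in each direction, and none of them shares its ID with another line of the table.

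Among these 102 genes higher in Tm, Cre06g294150 had the largest difference. It was at 3.86, 3.15, 5.31, 7.56 and 15.4 CPM in the Tm libraries, against 1.13, 0.653, 1.09, 1.41 and 1.83 CPM in the Y libraries. Its lowest Tm library was above its highest Y library, library 5 was the highest of both groups, and the log2 difference was 2.54 ± 0.46 (SE, edgeR adjusted p = 0.000317). The controls were higher still, at 15.6 to 31.3 CPM, and on the log2 scale the gene fell by 1.81 in Tm and fell by 4.34 in Y. Next in size, g15585 was at 47.5, 49.9, 53.8, 64.3 and 123 CPM in the Tm libraries, against 11.8, 9.89, 9.75, 13.6 and 21.9 CPM in the Y libraries. The groups do not overlap, and the log2 difference was 2.34 ± 0.30 (SE, edgeR adjusted p = 6.74e-06). The control libraries of this gene lay at 194 to 350 CPM, above every library of both metals.

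In the other direction, g16307 was raised more in Y than in Tm. It was at 1.32, 0.566, 1.51, 0.654 and 1.69 CPM in the Tm libraries, against 6.28, 3.62, 6.90, 4.78 and 7.02 CPM in the Y libraries. The groups do not overlap, and the log2 difference was -2.26 ± 0.26 (SE, edgeR adjusted p = 2.07e-06). The log2 change against the control was 1.01 in Tm and 3.27 in Y, both called, and the controls, at 0.254 to 0.830 CPM, overlap with the Tm libraries only. These levels rest on few reads, 7 to 31 in the Tm libraries and 3 to 21 in the controls. Similarly, Cre17g702950 was at 2.54, 1.37, 1.56, 3.34 and 1.14 CPM in the Tm libraries, against 10.4, 7.53, 11.6, 6.20 and 7.53 CPM in the Y libraries. Every Y library was above every Tm library, with a log2 difference of -2.12 ± 0.28 (SE, edgeR adjusted p = 7.74e-06). The controls of this gene lay at 0.712 to 1.52 CPM, a range that overlaps with the Tm libraries and not with the Y libraries.

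The genes named for their high levels were chosen among genes at least 2-fold apart, and their differences were close to that 2-fold limit. They do not give the typical difference of abundant genes. Of those higher in Tm, Cre07g3288001 was at 308, 337, 337, 421 and 424 CPM in the Tm libraries, against 173, 180, 183, 194 and 180 CPM in the Y libraries. Its log2 difference was 1.01 ± 0.14 (SE, edgeR adjusted p = 2.98e-05), and its controls stood far above both metals, at 1498 to 2441 CPM. The gene g1913 was at 274, 356, 280, 419 and 418 CPM in the Tm libraries, against 156, 158, 137, 191 and 179 CPM in the Y libraries. The groups do not overlap, and the log2 difference was 1.09 ± 0.21 (SE, edgeR adjusted p = 0.000477). Its controls lay at 400 to 1258 CPM, partly within the range of the Tm libraries and above that of the Y libraries.

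Of the abundant genes lower in Tm, Cre02g080650 was at 333, 348, 306, 252 and 254 CPM in the Tm libraries, against 605, 616, 529, 634 and 677 CPM in the Y libraries. The groups are well apart, with a log2 difference of -1.04 ± 0.23 (SE, edgeR adjusted p = 0.00191). Its controls were at 13.6 to 56.6 CPM, and the log2 change against them was 3.23 in Tm and 4.27 in Y. Unlike these genes, g3654 was called against the control in Y alone. It was at 321, 253, 226, 206 and 315 CPM in the Tm libraries, against 642, 624, 501, 522 and 619 CPM in the Y libraries (log2 difference -1.14 ± 0.25, SE, edgeR adjusted p = 0.00178). Its log2 difference from the control was -0.17 in Tm (edgeR adjusted p = 0.553) and 0.97 in Y (edgeR adjusted p = 0.000929), and the controls, at 134 to 468 CPM, spread over the whole range of the Tm libraries.

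Few genes were called against the control in opposite directions in Tm and in Y. A change that is not called is not thereby absent, and the controls had the widest spread of all groups. By mean CPM the control lay between Tm and Y in 350 of the 2659 called genes (13.2%), against 9.18% of all tested genes. Against the control, edgeR called 8938 genes in Tm (69.8%) and 9292 in Y (72.6%), and both comparisons use the same control libraries. Genes called in opposite directions in these comparisons, and called between Tm and Y, numbered 13, with 4 above control in Tm and below control in Y, and 9 the other way round. The Tm and Y libraries did not overlap in 13 of the 13, which the choice by calls favours. No overlap held for 80.8% of genes called higher and 78.8% of those called lower in Tm. Over all tested genes, all Tm libraries lay above Y in 12.2% and below in 12.5%. Of the 13, 7 differed by at least 2-fold, which the choice by opposite calls also favours. Of the 2659 called genes, 499 did so and 2160 (81.2%) did not. The 499 are 3.90% of all tested genes. Among the 13, the largest change against the control was -0.96 in Tm and 0.90 in Y, on the log2 scale.

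With the largest difference of the 4 that were above control in Tm, Cre07g349200 was at 21.5, 39.2, 29.0, 21.9 and 19.8 CPM in the Tm libraries, against 6.59, 11.3, 8.42, 5.41 and 8.10 CPM in the Y libraries. The controls, at 9.48 to 17.9 CPM, lay below every Tm library and overlapped with the Y libraries. The log2 change against the control was 0.95 in Tm and -0.77 in Y, and the log2 difference of Tm over Y was 1.72 ± 0.28 (SE, edgeR adjusted p = 8.91e-05). A second gene of this kind, Cre06g284150, was at 5.86, 11.9, 10.1, 6.98 and 4.52 CPM in the Tm libraries, against 1.75, 3.11, 2.91, 3.12 and 2.28 CPM in the Y libraries. Its controls, at 2.57 to 7.31 CPM, overlapped with both metals, though both changes passed the test (0.81 in Tm and -0.76 in Y on the log2 scale).

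Of the 9 with the reverse pattern, Cre01g003850 had the largest difference, which was also the largest of all 13. It was at 0.927, 1.45, 0.438, 0.800 and 0.663 CPM in the Tm libraries, against 3.40, 3.26, 2.48, 3.46 and 2.53 CPM in the Y libraries. Every Y library was above every control library, which were at 0.932 to 2.45 CPM, while the Tm and control ranges overlapped. These levels rest on few reads, 9 to 19 in the Tm libraries and 11 to 62 in the controls. The log2 change against the control was -0.96 in Tm and 0.90 in Y, and the log2 difference of Tm over Y was -1.87 ± 0.30 (SE, edgeR adjusted p = 0.00011). Likewise Cre10g436350 was at 2.34, 1.05, 1.75, 1.60 and 1.39 CPM in the Tm libraries, against 7.46, 4.07, 7.93, 3.90 and 3.73 CPM in the Y libraries. All its Tm libraries were below the control range of 2.58 to 4.07 CPM, and the Y libraries reached from within that range to well above it. The difference of Tm over Y was -1.71 ± 0.25 on the log2 scale (SE, edgeR adjusted p = 3.55e-05).

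**Figure D4:**
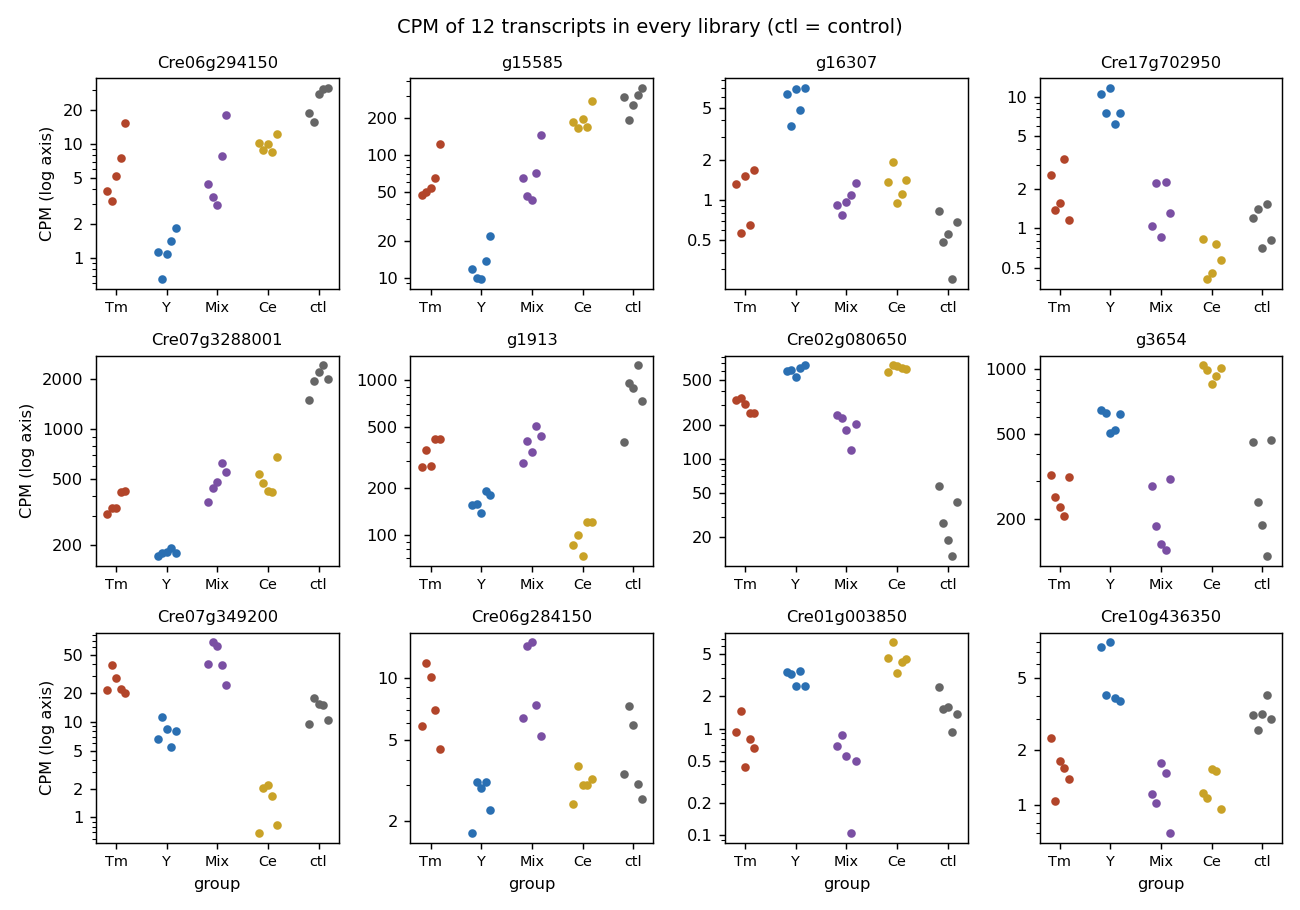
Level in CPM (vertical axes, log scale) of the 12 named genes in every library of the Tm, Y, Mix, Ce and control groups (horizontal axes). In each panel the 5 Tm libraries lie wholly above or wholly below the 5 Y libraries, and all Mix libraries lie on the same side of the Y libraries as the Tm libraries do.

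In the genes that separate Tm from Y, the mixture lay mainly on the Tm side. Mix was set against the mean of Tm and Y, a contrast that again favours neither, and edgeR called 1147 of all tested genes higher (8.96%) and 1277 lower (9.98%) in Mix. Among the 1247 genes higher in Tm than in Y, Mix was called above the mean in 703 and below it in 22. Among the 1412 genes lower in Tm, Mix was called above it in 2 and below it in 800. By mean CPM, Mix lay nearer to Tm than to Y in 2531 of the 2659 called genes (95.2%), against 73.8% of the genes not called. In 1926 of the called genes (72.4%) Mix lay beyond Tm on the side away from Y, in 703 (26.4%) between Tm and Y, and in 30 (1.13%) beyond Y. Among genes not called these shares were 56.8%, 26.1% and 17.1%, so Mix lay beyond Tm in most genes of both kinds.

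In each of the 12 named genes Mix was called on the Tm side of the mean of Tm and Y. Mix against Y was called in 12 of 12, against 35.6% of all tested genes. These genes were chosen for their difference from the same Y libraries, which favours such calls. Mix against Tm was called in 0 of the 12 by edgeR, with adjusted p-values from 0.153 to 0.982, where 1.17% of all tested genes were called. For Cre07g349200 the Mix libraries lay at 24.5 to 68.0 CPM, and the log2 difference of Mix over Tm was 0.84 ± 0.26 (SE). A p-value that misses the threshold does not show that Mix and Tm levels were alike.

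Cerium was called more often on the Y side than on the Tm side in these genes. Against the mean of Tm and Y, Ce was called higher in 5574 genes (43.6%) and lower in 4501 (35.2%). Among genes higher in Tm than in Y, Ce was above the mean in 392 and below it in 551, and among genes lower in Tm it was above in 656 and below in 407. By mean CPM, Ce lay beyond Tm in 771 of the called genes (29.0%), between Tm and Y in 705 (26.5%) and beyond Y in 1183 (44.5%). Among genes not called these shares were 36.0%, 6.53% and 57.5%, so the lean of Ce to the Y side was not particular to the called genes. The named genes show both kinds: in g15585 the Ce libraries were at 167 to 275 CPM, above Tm and further from Y, while in Cre02g080650 they were at 584 to 672 CPM, beside Y.

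**Figure D5:**
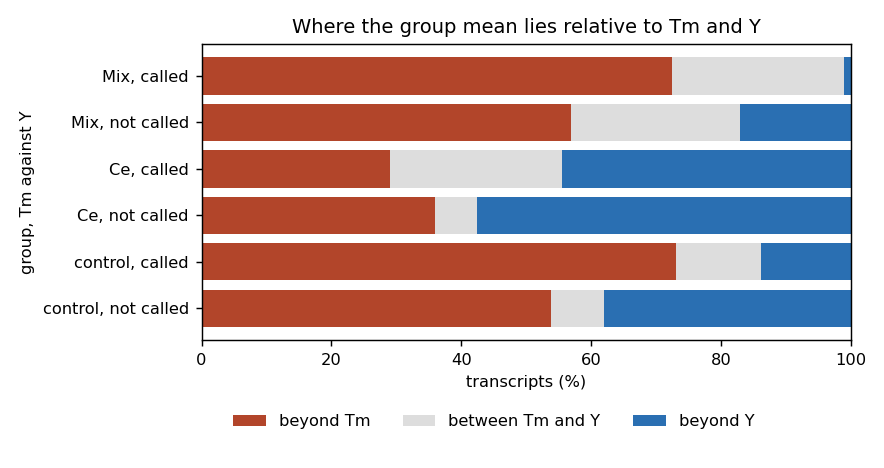
Share of genes in percent (horizontal axis) in which the mean CPM of Mix, Ce or control lay beyond Tm, between Tm and Y, or beyond Y. Bars are given for genes called between Tm and Y and for genes not called. Among called genes Mix lay beyond Y in 1.13% and the control in 13.8%, against 44.5% for Ce.

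The share of genes called varied with abundance. When genes were ranked by level and cut into 4 equal groups of 3199, 7.13% were called in the least abundant group (median 0.482 CPM), with 73 higher and 155 lower in Tm, and no difference under 0.65 on the log2 scale was called. In the most abundant group (median 98.6 CPM) 28.9% were called, with 528 higher and 396 lower in Tm, and differences down to 0.21 on the log2 scale were called. Differences of at least 2-fold went the other way, with 5.41% in the least abundant and 1.56% in the most abundant group.

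Neighbouring genes were compared where the reference gave their order along a chromosome, which it did for 8677 tested genes. In 310 pairs of neighbours both genes were called, and 207 of the pairs (66.8%) had the same direction, 86 with both higher and 121 with both lower in Tm. Over all 5449 pairs with both genes tested, the sign of the difference was the same in 55.5%. Most of these pairs hold a gene that was not called, whose sign is less certain, so these shares are not like for like. Runs of at least 4 neighbours called in 1 direction numbered 5, and none was longer than 4. The counting of strand is not given in the sources used here, so reads shared by overlapping neighbours cannot be told apart from separate transcripts.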

How the data were processed

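The authors deposited raw counts of reads, whole numbers in 1 column per library and 1 line per transcript. The submitters' processing notes name SAMtools 1.2, TopHat2 2.0.14 and Trim Galore 0.3.7. How reads were counted, whether by strand, and on which genome build is not given in the sources used here. Groups were taken from sample titles. In 34 cells the text PAC: stood in the number and was removed, and 1502 IDs stood on 2 lines each and were kept as deposited. No Tm or Y libraries were alike within sampling noise (chi-square over degrees of freedom of 5.45 or more for every pair).

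Counts were tested with the quasi-likelihood test of edgeR 4.0.16 (R 4.3.3), with robust fitting, filterByExpr on low counts, TMM scaling, all 25 libraries in 1 fit with a coefficient per group, and Benjamini-Hochberg adjustment. Standard errors are the absolute log2 difference divided by the square root of F. The code was tested on simulated counts. Alternatives were other scalings and filters, DESeq2 1.42.0, voom in limma 3.58.1, a replicate block, the 10 libraries alone and leaving out libraries.

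Named genes are 2 in each direction by size and by level among the 195 described, and 2 in each direction by size among the 13 with opposite changes. The members and lists were chosen with earlier results of these data known. The reference (assembly version 5.5) gave 0 symbols other than locus tags and served only for the order of neighbours.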

Additional observations from a re-analysis of the deposited data

Results flagged for a closer look

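For all 12 named genes the response to Tm differed from that to Y by a test of the difference itself, with the control cancelling out (edgeR quasi-likelihood, adjusted p under 0.05 in every case, values above). On the log2 scale the response in Tm minus that in Y was 2.54 for Cre06g294150, 2.34 for g15585, 1.01 for Cre07g3288001, 1.09 for g1913, 1.72 for Cre07g349200 and 1.57 for Cre06g284150. It was -2.26 for g16307, -2.12 for Cre17g702950, -1.04 for Cre02g080650, -1.14 for g3654, -1.87 for Cre01g003850 and -1.71 for Cre10g436350. These genes were chosen for such differences, so the values are descriptions of them.

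Library 5 stood far from the other libraries of its group for g15585 in 3 groups: it was at 123 CPM in Tm, 146 CPM in Mix and 275 CPM in Ce, the highest value in each. These were the 3 such cases among 70 groups of 5 values examined, and chance gives about 1 in 20. Without Tm library 5 the log2 difference of g15585 was 2.01, and without library 5 of every group it was 2.26, and it was called in both fits.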

How the results depend on the processing

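The direction and call of all 12 named genes held under all 29 alternatives run for each. The gap between raised and lowered genes stayed negative in each fit that holds the controls (-0.39 without control library 1 to -0.28 without Tm library 5), and the slope difference, not computed for DESeq2, voom or the 10 libraries, lay between -0.158 and -0.125. Counts moved more. The 10 libraries alone gave 4536 calls (2141 higher, 2395 lower in Tm), and voom with group weights 4596 (2139 and 2457). With control library 1 as TMM reference 2189 were higher and 920 lower in Tm, with Tm above Y in 590 raised and below Y in 79 lowered genes. Tm was above Y in 340 raised genes with upper-quartile factors, 310 with DESeq2 and 443 with voom. Without library 5 of every group calls fell to 1464 (698 higher, 766 lower); Tm was below Y in 553 and above in 78 raised genes, and above in 559 and below in 83 lowered genes. The cause of these moves was not tested, except that the last fit holds fewer libraries.

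Leaving out single libraries gave 1904 (Tm 5) to 3859 calls (control 1), 885 to 2065 higher and 752 to 1978 lower in Tm. Raised genes had Tm below Y in 571 to 1422 and above in 114 (Tm 4) to 569, with 125 without Y 2, 127 without Y 5 and 346 without control 1; lowered genes had Tm above Y in 655 to 1328 and below in 57 to 216, with 98 without Tm 4 and 106 without Y 2. Without control 1, 1881 were higher in Tm. The extremes of 2065, 752, 571, 569 and 57 came without Tm library 2, where edgeR took control library 1 as reference. With Tm library 3 as reference, chosen after seeing the data, 1052 were higher and 1249 lower.

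Deviations from each gene's group mean, in log2 CPM, were correlated over genes between Tm and Y libraries. Same-numbered libraries correlated at 0.134, 0.119, 0.0790, 0.0600 and 0.216 in these deviations, over 0.1 in 3 of 5. The main tests did not take the numbers as pairs, though 4 of 5 correlated best with their own number. The replicate block gave 3518 calls and 291 raised genes with Tm above Y. If same-numbered libraries were paired in such a replicate block for the slope, an alternative added after seeing the data, the difference of -0.147 had Tm lower in 5 of 5 pairs, and an exact two-sided sign-flip permutation test gave p = 0.0625, the smallest that 5 pairs allow.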
